A study of Homo sapiens with 12 samples.

Results

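The protein and RNA parts of the H/ACA machinery were followed by the read counts of their genes. The set was DKC1, NHP2, NOP10, GAR1, NAF1, SHQ1, WRAP53 and TERC, chosen by symbol in both count tables. All 8 were found, among 61163 rows per table. Each of the 8 had 1 row and a count above 0 in all 12 libraries.

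RNA came from HEK293T cells, a line of human embryonic kidney origin that carries the viral large T antigen. HEK WT cells were compared with HEK UL1 KO cells, in which CRISPR-Cas9 with 2 guides had cut exons 2 and 3 of HNRNPUL1, the gene of the RNA-binding protein hnRNP UL1. The KO is a line, and whether it descends from 1 clone is not stated in the sources used here. Nucleoli were separated from the rest of the cell, giving a nucleolar (NO) and a cytoplasmic-nuclear (CN) fraction, so that there were 4 groups of 3 libraries: WT NO, KO NO, WT CN and KO CN. The labels name no drug or other agent for these cells, and rRNA was not depleted. The labels call the libraries of a group biological replicates.

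H/ACA ribonucleoproteins are built on RNAs that fold into hairpins and carry the H box and the ACA box. Their core is dyskerin (the product of DKC1), the pseudouridine synthase that turns uridines of rRNA and snRNA into pseudouridine, together with NHP2, NOP10 and GAR1. SHQ1 holds free dyskerin before assembly, and NAF1 sits in the place of GAR1 in the immature particle until GAR1 replaces it. TERC, the RNA that carries the template of telomerase, ends in an H/ACA domain bound by the same core. WRAP53, also called TCAB1, binds the CAB box of TERC and of small Cajal body RNAs (scaRNAs) and brings them to Cajal bodies. Mutations in several of these genes cause dyskeratosis congenita, a disease of short telomeres.

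TERC is the RNA of the set and its sequence shows why it belongs to it. It lies on the minus strand of chromosome 3 in GRCh38, where RefSeq gives it 451 bases, chr3:169764610-169765060, with a GC content of 67.4%. The template region at bases 31 to 71 of the RNA (chr3:169764990-169765030) is written here as DNA, 5′ to 3′, with the telomere template at bases 46 to 56 in capitals. The end of the H/ACA domain, bases 367 to 451 (chr3:169764610-169764694), has the H box at bases 372 to 377, the CAB box at bases 411 to 414 and the ACA at bases 446 to 448 in capitals, with 3 bases after the ACA.
TERC template region: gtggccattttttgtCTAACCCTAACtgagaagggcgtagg
TERC end of the H/ACA domain: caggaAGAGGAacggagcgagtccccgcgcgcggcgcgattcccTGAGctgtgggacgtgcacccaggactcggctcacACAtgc
Read on the RNA strand alone, the letters ANANNA of the H box occurred 5 times in the 451 bases, TGAG 2 times and ACA 3 times, so the letters by themselves do not single out the marked copies.

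The genes of the 7 proteins lie on 6 chromosomes (GRCh38, GENCODE). DKC1 is at chrX:154762742-154777689 on the plus strand with 15 exons in its canonical transcript, and NHP2 at chr5:178149463-178153894 on the minus strand with 4. NOP10, the smallest, is at chr15:34339159-34343180 on the minus strand with 2 exons, and GAR1 at chr4:109815510-109824740 on the plus strand with 7. NAF1 is at chr4:163110073-163166890 on the minus strand with 8 exons, SHQ1 at chr3:72749277-72861914 on the minus strand with 11, and WRAP53 at chr17:7686071-7703502 on the plus strand with 11. Whether counting used the strand is not given in the sources used here. The exons of NHP2 share 414 bases with RMND5B on the opposite strand, so the counts of NHP2 are uncertain to that extent. DKC1 holds the H/ACA snoRNAs SNORA36A and SNORA56 and the miRNA gene MIR664B on its own strand. Exons annotated for DKC1 cover 132 bases of SNORA36A and 129 of SNORA56, the whole length of both. How reads there were counted is not given, so the counts of DKC1 and these snoRNAs may not be independent. NHP2 has the pseudogene NHP2P1. GENCODE places a second RNA model, Telomerase-vert, over 438 bases of TERC, so reads of TERC may not all have been counted in its row.

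The libraries held 37141666 to 83019079 counts in NO and 54349399 to 104040073 in CN. Levels are given as CPM, the count of a gene relative to the total of its library after scaling by the trimmed mean of M-values (TMM), within the fraction for KO against WT. TMM factors of WT NO were 0.690, 0.622 and 1.40 for replicates 1 to 3, against 1.09 to 1.34 in KO NO, so replicate 3 of WT stood apart from the other WT NO libraries. In CN the factor of replicate 3 of WT was 0.760 against 1.01 to 1.09 in the other 5. The targeted gene had 15.4 ± 6.14 CPM in WT NO and 3.84 ± 0.262 in KO NO, and 17.1 ± 1.41 in WT CN and 4.80 ± 0.0583 in KO CN (SD, n = 3). By edgeR's quasi-likelihood test with Benjamini-Hochberg adjustment, HNRNPUL1 fell by 2.00 (adjusted p = 0.00649) in NO and by 1.83 (adjusted p = 2.12e-07) in CN on the log2 scale. CDH2 and VIM, expressed in HEK293 cells, had at least 764 and 431 counts in every library, the most of 8 HEK293T markers, while KRT18 had 41 to 154 and INA 7 to 256. Of 5 markers of other cell types, the liver marker ALB had 0 to 26 counts and the T-cell marker CD3E 0 to 23, but PECAM1 had 12 to 246, PTPRC 5 to 178 and COL1A1 28 to 120, in the range of the lower HEK293T markers. Over these 5 the summed CPM on the scale of all 12 libraries was 3.20 to 4.42 in WT NO, 4.54 to 5.03 in KO NO, 0.974 to 1.64 in WT CN and 1.93 to 2.29 in KO CN. Over 8 HEK293T markers it was 42.2 to 63.5, 33.1 to 42.8, 78.9 to 106.7 and 56.7 to 57.5 in the same order.

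In WT CN the most abundant member per base was NAF1. Dividing by the length of the canonical transcript, or for TERC by the 451 bases of RefSeq, gave 11.3 ± 1.07 CPM per kb for NAF1, 6.95 ± 1.03 for NOP10, 5.96 ± 0.377 for DKC1 and 4.81 ± 0.400 for SHQ1 (SD, n = 3). GAR1 followed with 4.04 ± 0.182 CPM per kb and NHP2 with 3.16 ± 0.482. TERC, at 0.442 ± 0.153, and WRAP53, at 0.414 ± 0.0745, were the lowest and did not differ beyond their spread, and with the 541 bases that GENCODE gives TERC its value would lie under that of WRAP53. NOP10 and DKC1 also lay within the spread of each other. In KO CN the order per kb changed in the middle, with DKC1 at 3.74 ± 0.346 and GAR1, NHP2 and SHQ1 between 2.48 and 2.57, and TERC was the lowest at 0.152 ± 0.0529. In WT NO the values of NAF1 (7.79 ± 2.77 CPM per kb), DKC1 (6.80 ± 2.36) and NOP10 (6.68 ± 2.49) overlapped, and TERC had 1.12 ± 0.684. NAF1 remained first with the length of all annotated exons in place of the canonical transcript, a length chosen after seeing the data, but the order of the middle members depended on it.

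**Figure D1:**
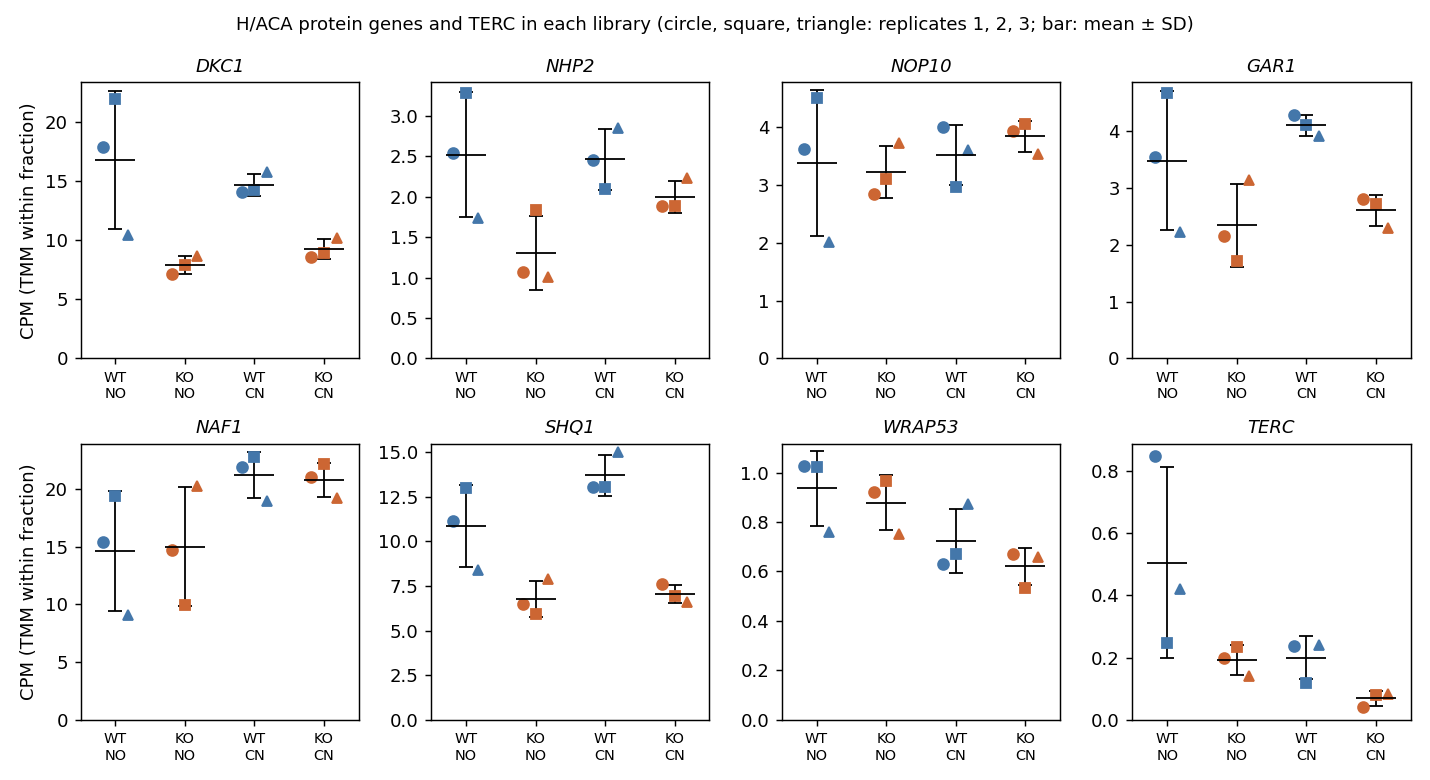
Level of each of the 8 genes in each library, with CPM scaled by TMM within the fraction on the y axis, from 0 and with its own range for each gene, and the 4 groups along the x axis (symbols are libraries, lines are the mean ± SD, n = 3). In CN the WT and KO points of DKC1, GAR1, SHQ1 and TERC are apart, and in NO those of DKC1, SHQ1 and TERC. Of all tested genes, 52.8% in CN and 20.1% in NO had WT and KO groups that did not overlap.

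Within the set, the edgeR fit of the 6 libraries of a fraction called members between KO and WT cells in CN and none in NO. Transcripts of DKC1, GAR1 and SHQ1 were called lower in KO and none of the set was called higher. These were 3 of 7 tested members, a count near the 37.9% of all tested genes that edgeR called in either direction. SHQ1 had 13.0, 13.1 and 15.01 CPM in the 3 WT CN libraries and 7.62, 6.92 and 6.60 in the 3 KO CN libraries. Every KO library lay under every WT library (groups of 52.8% of all tested genes did not overlap in CN), and the mean moved from 13.7 ± 1.14 to 7.05 ± 0.521 (SD, n = 3). By edgeR's quasi-likelihood test with Benjamini-Hochberg adjustment over 27234 genes, SHQ1 was 1.94-fold lower (log2 fold change -0.96, SE 0.09, adjusted p = 2.04e-05).

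DKC1, the catalytic subunit, had 14.1, 14.3 and 15.8 CPM in WT CN and 8.62, 8.89 and 10.2 in KO CN. The groups did not overlap, as for 52.8% of all tested genes in CN, with means of 14.7 ± 0.932 and 9.24 ± 0.855 (SD, n = 3). In the same edgeR test DKC1 was 1.59-fold lower (log2 fold change -0.67, SE 0.09, adjusted p = 0.000177). GAR1, the last core protein to join the particle, had 4.28, 4.12 and 3.91 CPM in WT CN and 2.80, 2.72 and 2.30 in KO CN. Again no KO library reached the lowest WT library, and edgeR gave a log2 fold change of -0.65 (SE 0.11, adjusted p = 0.000958).

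The other tested proteins of the set did not pass. NAF1 had 21.9, 22.7 and 18.9 CPM in WT CN and 21.0, 22.1 and 19.2 in KO CN, values that overlapped closely. Its log2 fold change was -0.03 with a 95% interval from -0.22 to 0.17 (edgeR, adjusted p = 0.821), which leaves out a fall as large as that of GAR1, DKC1 or SHQ1. NOP10 had 4.003, 2.97 and 3.61 CPM in WT CN and 3.94, 4.05 and 3.55 in KO CN, also overlapping, with a log2 fold change of 0.13 and an interval from -0.14 to 0.40. For NHP2, the core subunit that contacts the RNA beside NOP10, the estimate was -0.30 with an interval from -0.62 to 0.01 (edgeR, adjusted p = 0.12). WRAP53 had 39 to 69 counts per CN library, and its interval of -0.70 to 0.25 was the widest of the 7.

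In all, 3 of 7 tested members were called lower and 0 higher in CN, where edgeR called 37.9% of all tested genes in either direction and 22.3% of all tested genes as lower. The median log2 fold change of the 7 was -0.30, against 0.04 over all genes tested. The summed CPM of the 8 HEK293T markers was also lower in KO CN and that of the 5 markers of other cell types higher, and their part in the result was not tested. By edgeR 3 of the 8 HEK293T markers were called lower in CN and 3 higher (median log2 fold change -0.04), and of the 5 others 3 were tested and 1 was called, as higher. DESeq2, the tool named by the study, called the same 3 (28.9% of all genes). Scaling by total counts moved the median of all genes to 0.24 and left DKC1 (-0.46, adjusted p = 0.0446) and SHQ1 (-0.74, adjusted p = 0.00335) called by edgeR, while GAR1 (-0.45, adjusted p = 0.0998) was not, at a background of 19.9%. GAR1 was also not called when all 12 libraries shared 1 edgeR fit (-0.73, adjusted p = 0.0596), where 11.2% of all genes were called. With 3 libraries a group, an exact permutation test of a single gene cannot go below p = 0.1 (two-sided), the value each of the 3 genes had. Bulk RNA cannot tell fewer cells that express a gene from less of its RNA per cell.

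TERC was near the limit of detection in CN and was left out by the filter on low counts. It had 20, 10 and 19 counts in the 3 WT CN libraries and 3, 6 and 5 in the 3 KO CN libraries. On the CPM scale the means were 0.199 ± 0.0689 and 0.0685 ± 0.0239 (SD, n = 3). The groups did not overlap, as for 52.8% of all tested genes in CN. Fitted without the filter, TERC had a log2 fold change of -1.57 (edgeR, adjusted p = 0.0154, where 19.2% of all genes were called), and DESeq2 gave -1.62 with an adjusted p of 0.0567. The call of TERC thus depended on the tool and the filter, and both estimates were below 0.

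**Figure D2:**
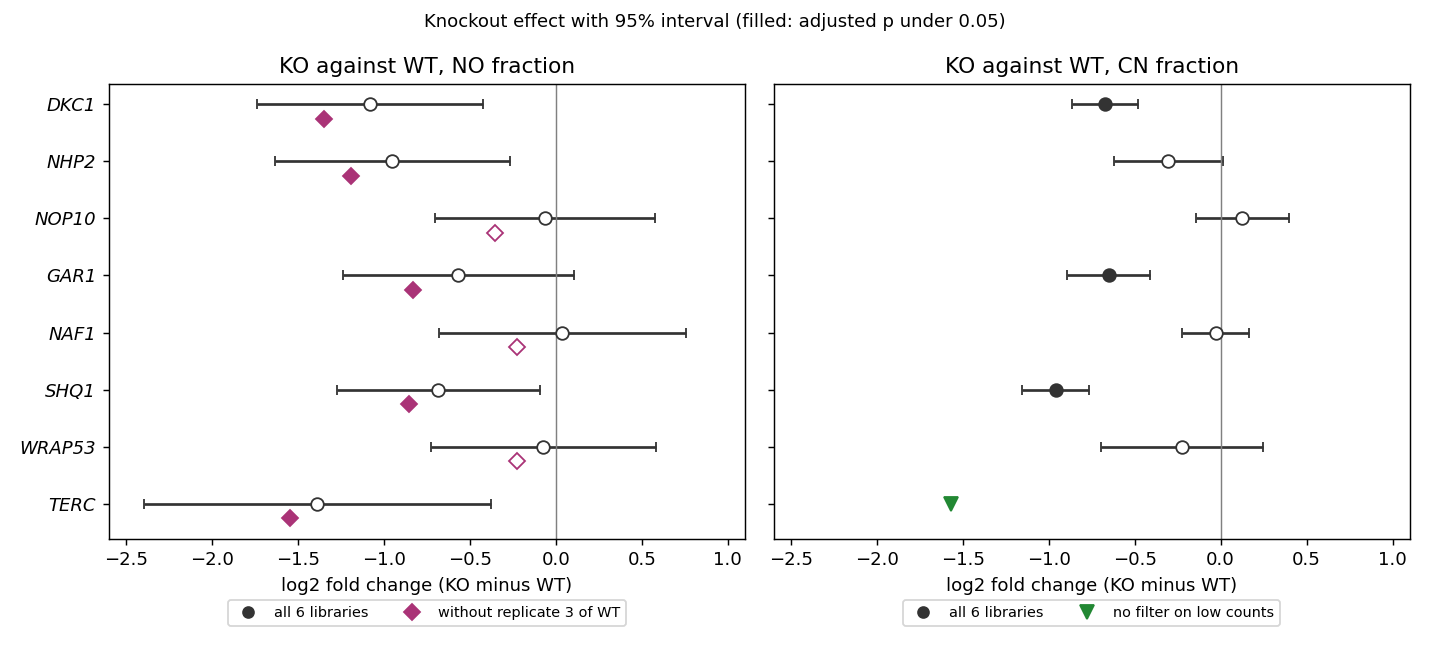
Log2 fold change of KO against WT for each gene, with NO on the left and CN on the right (circles with 95% intervals are from the edgeR fit of 6 libraries, diamonds leave out replicate 3 of WT NO, and the triangle is TERC without the filter on low counts; filled symbols have an adjusted p under 0.05). In CN the filled circles are DKC1, GAR1 and SHQ1, and in NO no circle is filled while 5 diamonds are.

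In the NO fraction the same direction was seen for most of the set, but no member passed the test. DKC1 had 17.9, 21.9 and 10.5 CPM in WT NO and 7.15, 7.91 and 8.70 in KO NO. The groups did not overlap, although replicate 3 of WT came close to the KO libraries. The log2 fold change was -1.08 (SE 0.31) with a 95% interval from -1.74 to -0.43 and an adjusted p of 0.109 by edgeR's quasi-likelihood test, while DESeq2 gave an adjusted p of 0.017. SHQ1 had 11.1, 13.0 and 8.42 CPM in WT NO and 6.47, 5.91 and 7.88 in KO NO, with groups just apart and a log2 fold change of -0.68 (SE 0.28, edgeR adjusted p = 0.246).

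TERC had 33, 8 and 25 counts in WT NO and 22, 10 and 6 in KO NO. Scaled to CPM these were 0.847, 0.248 and 0.422 against 0.199, 0.235 and 0.141, so that every KO library lay under every WT library only after scaling by TMM. Relative to total counts the WT library with 8 counts had 0.154 CPM, under the 0.162 to 0.265 of the KO libraries. The log2 fold change was -1.39 with a 95% interval from -2.40 to -0.38 (edgeR, adjusted p = 0.174). NHP2 had 2.54, 3.28 and 1.74 CPM in WT NO and 1.07, 1.84 and 1.01 in KO NO, which overlapped, and a log2 fold change of -0.95 (SE 0.32, edgeR adjusted p = 0.168). GAR1 (-0.57, interval -1.24 to 0.10), NOP10 (-0.06, -0.71 to 0.58), WRAP53 (-0.07, -0.73 to 0.58) and NAF1 (0.04, -0.68 to 0.76) had intervals that held 0.

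Counted over the set, 0 of 8 members were called in NO by edgeR, 4 had an unadjusted p under 0.05 and 7 had an estimate below 0, and DESeq2 called 1. Of all tested genes in NO, edgeR called 0.939% and DESeq2 4.41%. Groups that did not overlap were found for 3 members (DKC1, SHQ1 and TERC), against 20.1% of all tested genes. The median log2 fold change of the 8 was -0.62 and that of all genes 0.00. Without replicate 3 of WT NO, edgeR called 5 members lower, at a background of 25.1% of all genes called and 15.3% called lower: DKC1 (-1.35, adjusted p = 0.00229), NHP2 (-1.19, 0.00716), TERC (-1.54, 0.0295), SHQ1 (-0.85, 0.0183) and GAR1 (-0.83, 0.03). NOP10 (-0.35), NAF1 (-0.23) and WRAP53 (-0.23) stayed short of the threshold in that fit. Scaling by total counts instead raised the median of all genes to 0.40 and gave DKC1 -0.53, TERC -0.93 and NAF1 0.61, with 0 members called.

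The KO effect was then compared between the fractions by the interaction term of a fit of all 12 libraries. The difference, NO minus CN, was -0.25 on the log2 scale for DKC1 (95% interval -0.89 to 0.39), -0.50 for NHP2 (-1.23 to 0.23), 0.44 for SHQ1 (-0.14 to 1.01) and 0.30 for TERC (-1.17 to 1.76). For the other members it was 0.25 for GAR1 (-0.48 to 0.99), 0.24 for NAF1 (-0.55 to 1.02), 0.30 for WRAP53 (-0.44 to 1.05) and -0.03 for NOP10 (-0.72 to 0.66). No member was called by edgeR or DESeq2 and 0 had an unadjusted p under 0.05 in edgeR, where 0.114% of all genes were called, against 0.259% in DESeq2. For every member the interval spans a difference, in 1 direction or the other, as large as its KO effect in CN. For TERC that effect is the one fitted without the filter.

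Genes that act with the set were grouped by role. In CN, where 22.3% of all tested genes were called lower and 15.6% higher by edgeR, 4 of the 7 assembly factors of the R2TP complex and its partners were lower and 0 higher, among them ZNHIT6 (log2 fold change -0.98, adjusted p = 6.55e-06), known from box C/D snoRNP assembly, and the ATPase RUVBL2 (-0.39, adjusted p = 0.0397). Of the 4 core proteins of box C/D particles 3 were lower, including the methyltransferase FBL (-0.47, adjusted p = 0.00156) and SNU13 (-0.34, adjusted p = 0.0273). Telomerase reverse transcriptase and the factors that mature TERC gave 7 lower of 12, with the RNA helicases DHX36 (-1.01, adjusted p = 5.75e-06) and MTREX (-0.93, adjusted p = 8.52e-06) the most changed. TERT itself did not pass, at 0.53 (adjusted p = 0.092). In the shelterin and CST complexes at telomeres, TERF1 (-0.46, adjusted p = 0.00217) was 1 of 2 lower and STN1 (0.47, adjusted p = 0.0327) the 1 higher of 9. Cajal body proteins gave 5 lower and 1 higher of 10, among them GEMIN7 (-0.78, adjusted p = 0.0091) and SMN1 (-0.61, adjusted p = 0.000355), whose reads may be shared with its near-identical copy SMN2. These counts fell with total counts, where edgeR called 1 of 7 assembly factors and 2 of 12 telomerase genes lower and none of the box C/D core, telomere and Cajal body genes (1, 1 and 3 genes of these lists had an unadjusted p under 0.05, in either direction), while 1 telomere and 1 Cajal body gene were higher.

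Most of the tested RNAs that the core proteins bind were lower in KO CN. Of 192 listed H/ACA snoRNA genes, 84 passed the filter in CN, and of these 58 were called lower and 1 higher with a median log2 fold change of -1.13, against -0.30 for the 7 tested members. SNORA61 (-2.97, adjusted p = 8.5e-05) and SNORA16A (-2.54, adjusted p = 0.00021) had the largest changes by edgeR. Among the box H/ACA scaRNAs, which carry the CAB box that WRAP53 binds, 5 of 10 tested were lower, including SCARNA1 (-2.34, adjusted p = 0.000173) and SCARNA8 (-2.07, adjusted p = 0.00139), with a median of -0.78. Of 6 other structured RNAs (RMRP, RPPH1, RN7SK, RN7SL1, RN7SL2 and SCARNA2), 2 were lower, with a median of -0.23 over the 6. The lower ones were the RNase P RNA RPPH1 (-0.66, adjusted p = 0.00713) and the RNase MRP RNA RMRP (-0.53, adjusted p = 0.00205). Under total counts the snoRNA median in CN was -0.93, with 29 lower, and the median of the structured RNAs was 0.00.

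In NO, where edgeR called 0.574% of genes as lower, 29 of 127 tested H/ACA snoRNAs were lower and 0 higher, with a median of -1.19 and all 127 estimates below 0, led by SNORA61 (-2.84, adjusted p = 0.000503) and SNORA16A (-2.68, adjusted p = 0.000283). Total counts left 0 of the 127 called by edgeR, with 28 at an unadjusted p under 0.05 (median -0.80), DESeq2 called 60 of 105, and leaving out replicate 3 of WT NO gave 91 of 133. No gene of the scaRNA, structured RNA, box C/D core, assembly, telomerase, telomere or Cajal body lists was called in NO by edgeR, and their medians ran from -0.83 for scaRNAs to -0.29 for shelterin and CST. An unadjusted p under 0.05 was found for 6 scaRNAs, 1 box C/D core gene, 0 telomere genes and 2 genes of each other list. DESeq2 called 2 lower in each of the scaRNA, structured RNA, telomerase and Cajal body lists and 0 in the rest. Total counts turned the medians of the assembly (0.18), telomerase (0.12), telomere (0.22) and Cajal body (0.13) lists above 0, where the median of all genes was 0.40. Leaving out replicate 3 of WT NO turned that into 5 of 10 scaRNAs, 4 of 6 structured RNAs, 4 of 4 box C/D core proteins, 2 of 7 assembly factors, 4 of 12 telomerase genes, 4 of 10 Cajal body genes and 0 of 9 telomere genes lower, and 1 telomerase gene higher. SNORA36A and SNORA56, made from introns of DKC1, had NO estimates of -1.43 (adjusted p = 0.0642) and -1.33 (adjusted p = 0.141) by edgeR, beside -1.08 for DKC1 itself. In CN they had 0 to 5 counts per library and were not tested.

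**Figure D3:**
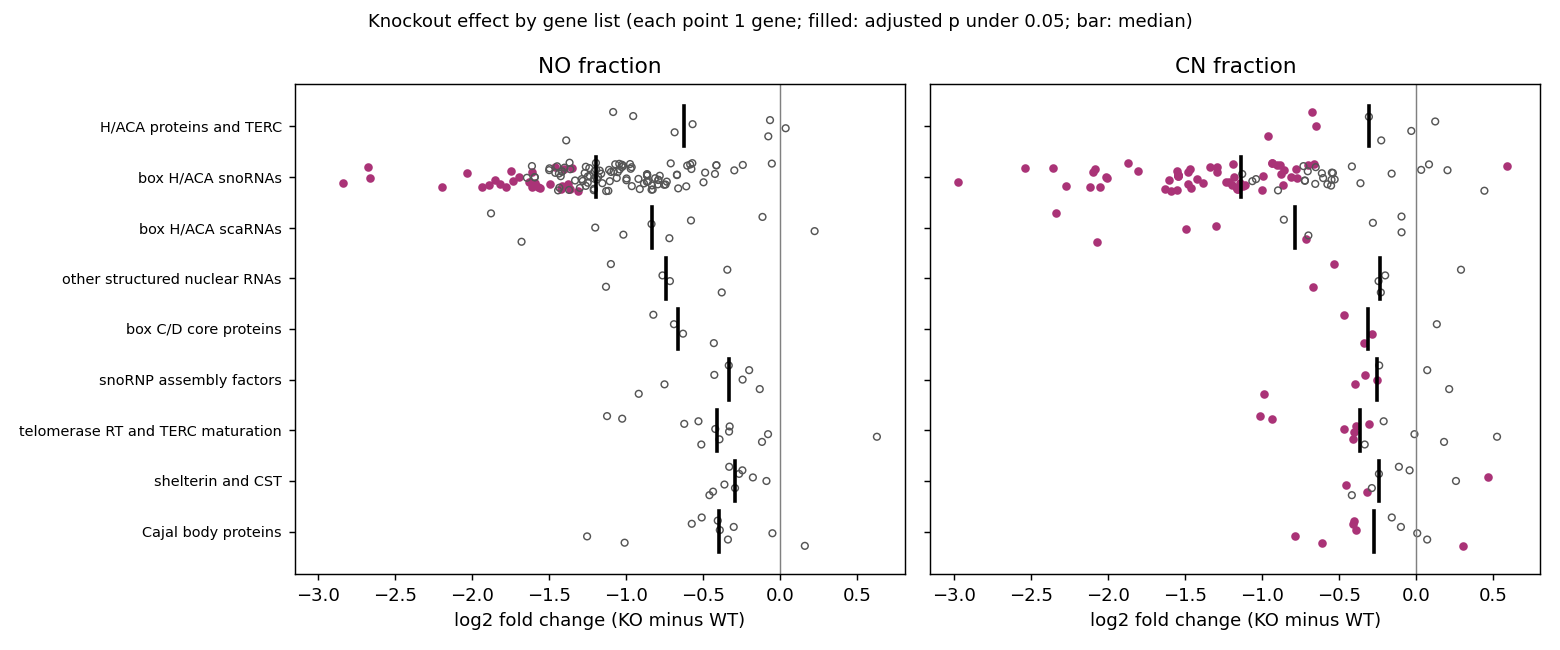
Log2 fold change of KO against WT in NO (left) and CN (right) for the tested genes of the set and of each list, 1 point per gene (filled points have an adjusted p under 0.05 in edgeR, and the upright bar is the median). Of the 9 groups plotted, box H/ACA snoRNAs have the lowest median in both fractions.

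Comparing the fractions asks where these RNAs were found. With all 12 libraries scaled together, 6 of 8 members were called lower in NO than in CN in WT cells and 0 higher, at a background of 27.4% of all tested genes called lower and 66% called in either direction. NAF1 had 11.8, 14.6 and 7.41 CPM in WT NO and 28.02, 28.8 and 25.1 in WT CN, a log2 difference of -1.28 (SE 0.27, edgeR adjusted p = 0.000921). SHQ1 had 8.57, 9.81 and 6.88 CPM in WT NO and 16.7, 16.5 and 19.9 in WT CN, a difference of -1.07 (SE 0.20, edgeR adjusted p = 0.000387). For both genes each NO library held less than the lowest CN library, as 66.4% of all tested genes had groups that did not overlap in 1 direction or the other. GAR1 (-0.99), NOP10 (-0.81), NHP2 (-0.72) and DKC1 (-0.55, adjusted p = 0.0312) were called too, and WRAP53 (-0.37, interval -0.90 to 0.15) was not.

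TERC was the 1 member with an estimate above 0. It had 0.651, 0.187 and 0.344 CPM in WT NO and 0.304, 0.151 and 0.319 in WT CN, groups that overlapped, and a log2 difference of 0.62 with a 95% interval from -0.30 to 1.54. In KO cells it had 0.168, 0.181 and 0.117 CPM in NO and 0.0502, 0.0983 and 0.102 in CN. Those groups did not overlap, as for 75.7% of all tested genes, and the difference was 0.92 with an interval from -0.25 to 2.09 (edgeR, adjusted p = 0.149). The H/ACA snoRNAs by comparison were mostly in NO, with 114 of 136 higher in WT at a median of 2.99 and 115 of 136 in KO at 3.12, where 38.6% and 38.3% of all tested genes were called higher. Of 12 scaRNAs 3 were higher in WT (median 0.21) and 4 in KO (median 0.68), medians below the estimates for TERC.

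In KO cells the same 6 proteins were lower in NO, against 28.4% of all genes called lower and 66.7% called in either direction, with NHP2 at -1.22, NAF1 at -1.04, NOP10 at -0.84, DKC1 at -0.80, GAR1 at -0.73 and SHQ1 at -0.64, and WRAP53 at -0.07 (interval -0.59 to 0.46). These calls rest on the scaling. TMM put the median of all genes at 0.26 in WT and 0.25 in KO, and total counts at 0.91 and 0.97. With total counts the sole member called was NAF1 in WT (-0.77, adjusted p = 0.0261) and TERC, higher in NO, in KO (1.63, adjusted p = 0.0414) by edgeR, at backgrounds of 46.7% and 44.9%. Without replicate 3 of WT NO, DKC1 (-0.33, adjusted p = 0.125) and NHP2 (-0.53, adjusted p = 0.0646) were no longer called in WT, at a background of 46.3%. The call of DKC1 in WT was also lost without replicate 1 of WT NO, without replicate 1, 2 or 3 of WT CN or without replicate 3 of KO CN (edgeR adjusted p = 0.0518 to 0.125 over these 6 fits). The call of GAR1 in KO was lost without replicate 1 or 2 of KO NO or replicate 1 or 2 of KO CN (edgeR adjusted p = 0.0509 to 0.0776). U3 snoRNA (SNORD3A), a nucleolar RNA, was higher in NO by 4.41 in WT and 4.05 in KO, and GAPDH mRNA was lower by 0.79 and 0.96 on the log2 scale.

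**Figure D4:**
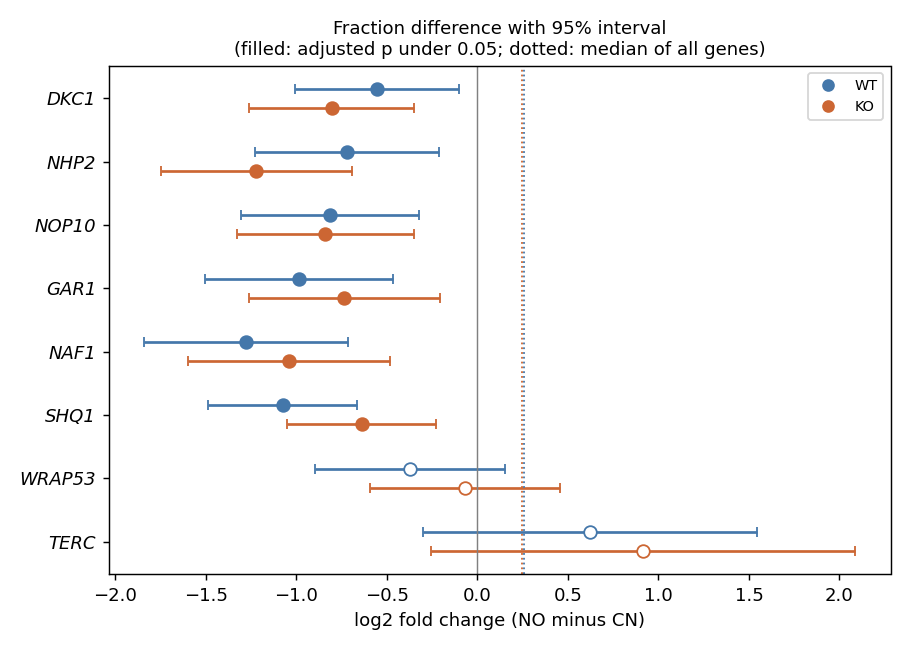
Log2 difference between NO and CN for each gene in WT and in KO cells, with 95% intervals from the edgeR fit of 12 libraries (filled symbols have an adjusted p under 0.05, and dotted lines are the medians of all genes). The 6 filled members lie between -1.28 and -0.55 in WT, and TERC is the member to the right of 0.

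The partner genes were also mostly lower in NO with TMM scaling. In WT, 6 of 7 assembly factors, 8 of 12 telomerase genes, 8 of 10 Cajal body genes, 4 of 9 shelterin and CST genes and 3 of 4 box C/D core genes were lower, with ZNHIT6 (-1.18), TENT4B (-1.20), which adenylates TERC precursors, TERF2 (-1.09) and SNU13 (-1.05) among the most changed. In KO the counts were 6 of 7, 8 of 12, 10 of 10, 6 of 9 and 3 of 4. Of all tested genes, edgeR called 27.4% lower in WT and 28.4% lower in KO. The calls of partner genes rest on TMM scaling as well. Total counts gave 46.7% of all tested genes called in WT and 44.9% in KO, in either direction. With total counts edgeR called 0 of 7, 1 of 12, 0 of 10, 0 of 9 and 1 of 4 lower in WT and 0 of each list in KO, and in the same order 1, 1, 1, 1 and 2 genes in WT and 0, 2, 0, 0 and 1 in KO had an unadjusted p under 0.05 in either direction. NOP56 was the exception among box C/D core genes in WT, higher in NO by 1.00 on the log2 scale. Structured RNAs went both ways in WT, with RMRP higher by 1.65 and RPPH1 lower (-2.56), and in KO 1 was higher and 2 lower of 6. SNORA36A was higher in NO by 4.73 in WT and 5.44 in KO, and SNORA56 by 2.81 and 3.27, while their host DKC1 was lower in both.

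The low levels of TERC and WRAP53 were set against olfactory receptor genes, taken as silent in these cells. Over 402 olfactory receptor genes, a list chosen after seeing the data, the 90th percentile was 0.0919 to 0.131 CPM per kb in the NO libraries and 0.0143 to 0.0353 in the CN libraries. Of these 402 genes, 23 to 157 had 0 counts in a NO library and 183 to 294 in a CN library. TERC lay above 96.3% to 99.3% of them in every library, with 0.312 to 1.88 CPM per kb in NO and 0.0910 to 0.533 in CN. WRAP53 had 0.429 to 0.587 CPM per kb in NO and 0.305 to 0.499 in CN, above the 90th percentile in every library. The olfactory receptor genes were thus also higher in NO than in CN, as were 4 of the 5 markers of other cell types in WT (median log2 difference 2.17). Their part in the differences between fractions was not tested. NHP2P1, the pseudogene of NHP2, had 9 to 32 counts per NO library and 30 to 58 per CN library, beside 43 to 118 and 132 to 225 for NHP2. RMND5B, which overlaps NHP2, had KO estimates of -0.15 in CN (edgeR adjusted p = 0.332) and -0.71 in NO (0.222).

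**Figure D5:**
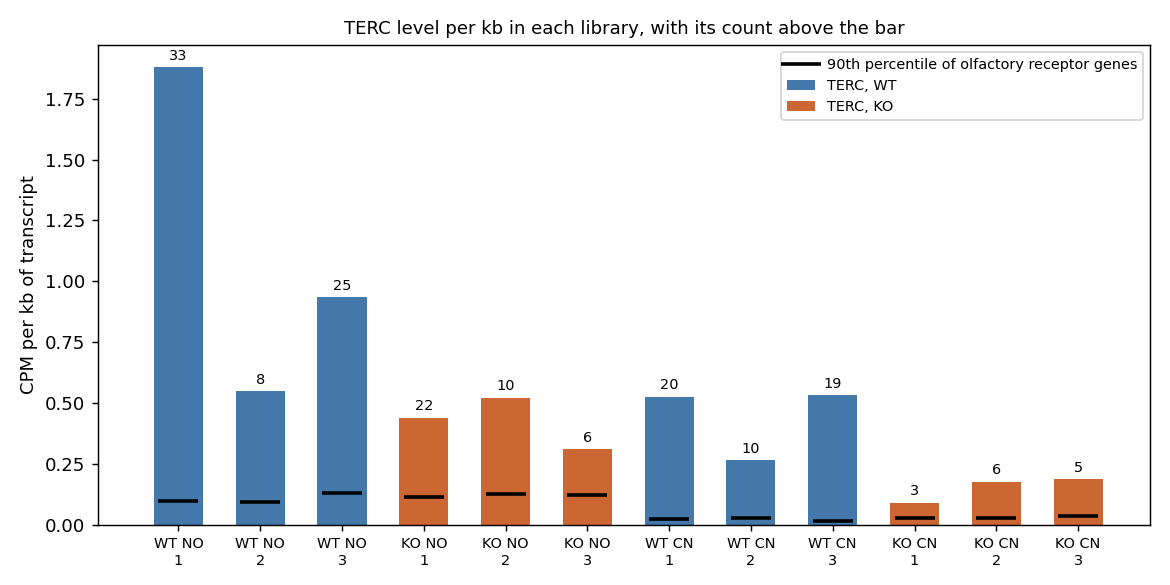
Level of TERC in each library as CPM per kb (bars from 0, with the count of reads above each bar), and the 90th percentile of 402 olfactory receptor genes in the same library (black lines). The bars are above the lines in all 12 libraries, and the lines are higher in the 6 NO libraries than in the 6 CN libraries.

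Across the 12 libraries the members did not all follow 1 pattern. DKC1, GAR1 and SHQ1 had Pearson correlations of log2 CPM from 0.895 to 0.954 with each other and NAF1 and NOP10 of 0.933, while TERC had at most 0.288 with any other member and -0.401 with NAF1. These describe 12 points that share libraries, depth and fraction. Among 15252 genes with a mean of at least 50 counts in both tables, the 3 most alike to DKC1 included PARP1 (r = 0.993) and TLN1 (0.988), and the 3 most alike to GAR1 included FBXO3 (0.993) and KRR1 (0.993). SHQ1 was nearest to GUSBP17 (0.994), a second row of that symbol and MAP3K1 (0.994). NOP10 was nearest to DNAJC21 (0.990), EIF1AD (0.984) and NCAPH (0.983), NHP2 to 3 rows of CNOT3 (0.984) and NAF1 to 3 rows of ARHGAP11A-SCG5 (0.996). WRAP53 and TERC, the members with the fewest counts, had lower values, with H3P4 (0.894), HROB (0.882) and BLCAP (0.870) for WRAP53 and GLB1L2 (0.904), PAICSP1 (0.885) and ANKRD27 (0.880) for TERC.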

How the data were processed

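RNA from the NO fraction and the CN fraction of each genotype (3 libraries each) was sequenced as 75-base single reads from a total RNA library kit without rRNA depletion. Per the labels and the methods of the study, the authors checked reads with FastQC 0.11.4, trimmed them with cutadapt 3.7, aligned them to GRCh38 with STAR 2.7.8, allowing up to 20 alignments a read, and deposited raw gene counts made with featureCounts, 1 table per fraction. The annotation version, the strand setting and the handling of reads with several alignments are not given in the sources used here. Reads shared between copies of a gene can therefore raise or lower both counts.

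The deposited counts were tested with edgeR 4.0.16 (filterByExpr with a minimum count of 10, TMM, quasi-likelihood F test, Benjamini-Hochberg over all genes tested, threshold 0.05) in R 4.3.3. KO was compared with WT in the 6 libraries of a fraction, and the fractions and the difference of the KO effect in 1 fit of 12 libraries. DESeq2 1.42.0, other scalings and filters, a replicate block and leaving out each library were alternatives. Single genes were set against exact two-sided permutation tests on log2(CPM + 0.01), which cannot go below 0.1 here. Lengths came from GENCODE and the TERC sequence from the RefSeq interval in GRCh38. All 8 members were named in each comparison, with the targeted gene, overlapping genes and, per list, the 2 called genes of largest change. Members and lists were chosen with earlier results of these data known. The fits were checked on simulated counts. Some genes that the rule names are not reported here. No protein sequence was used here. P-values set the difference between groups against the spread between these libraries, which come from a WT line and a KO line.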

Additional observations from a re-analysis of the deposited data

How the results depend on the processing

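The calls of DKC1 and SHQ1 as lower in KO CN held under every alternative tried. So did the call of NAF1 as lower in NO than in CN in WT. The call of GAR1 in CN and the other calls of members between fractions did not hold, and in NO the main fit called no member. For KO against WT in NO, 0 members and 327 genes were called. DESeq2 called 1 member and 1082 genes, no filter 1 and 1190, all 12 libraries in 1 fit 1 and 1744, total counts 10 genes, at least 10 counts in every library 143 and scaling to SNORD3A 11335. Leaving out 1 library gave 0 to 5 members and 123 to 9133 genes, the highest of both without replicate 3 of WT NO. In CN total counts called 5421 genes and the fit of all 12 libraries 4217, against 10323. For NO against CN, 6 members were called in WT and 6 in KO. Total counts called 1 in each, at least 10 counts in every library 3 in WT and 2 in KO, and the 6 libraries of WT alone 3. Genes called in WT were 24943, falling to 9879 with at least 10 counts in every library and 15494 with the WT libraries alone, and in KO 25218, falling to 8886 with at least 10 counts. For the difference of the KO effect 43 genes were called, 79 by DESeq2, 0 with total counts, 104 with no filter, 20 with at least 10 counts and 25 to 57 with 1 library left out. Group CPM did not overlap in 21 comparisons of a member, in 9 with total counts and in 21 to 24 with 1 library left out. Of all tested genes, 20.1% in NO and 52.8% in CN did not overlap between KO and WT. Between fractions the shares of all tested genes were 66.4% in WT and 75.7% in KO.

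Estimates near 0 changed sign. In KO against WT in NO, NAF1 was -0.0082 by DESeq2. NOP10 was 0.50 with total counts, 0.079 with at least 10 counts, 0.016 with all 12 libraries and 0.83 with SNORD3A. WRAP53 was 0.40 with total counts, 0.048 with at least 10 counts and 0.74 with SNORD3A, which also gave GAR1 0.36 and SHQ1 0.21. In CN, NAF1 was 0.16 with total counts and 0.050 with at least 10 counts, WRAP53 0.0041 with total counts and NOP10 -0.21 with GAPDH as reference. Between fractions, WRAP53 was 0.26 in WT and 0.66 in KO with total counts, 0.11 and 0.45 with at least 10 counts, and SHQ1 0.085 in KO with total counts. In the difference of the KO effect, NOP10 was 0.16 with total counts and 0.036 with at least 10 counts. With 1 library left out the ranges that crossed 0 were NOP10 -0.35 to 0.22, WRAP53 -0.23 to 0.037 and NAF1 -0.26 to 0.32 in NO, NAF1 -0.064 to 0.042 in CN, and NOP10 -0.29 to 0.21, TERC -0.00074 to 0.83, NAF1 -0.067 to 0.49 and GAR1 -0.029 to 0.50 for the difference. The share of calls that were higher moved with the scaling. In CN 4253 were higher and 6070 lower with TMM, against 3697 and 1724 with total counts and 1092 and 9068 with GAPDH. In NO 127 were higher and 200 lower, against 259 and 823 by DESeq2, 7 and 3 with total counts and 11246 and 89 with SNORD3A. With TMM the references themselves had edgeR estimates for KO against WT of -0.80 for SNORD3A in NO and 0.34 for GAPDH in CN. Their adjusted p was 0.536 and 0.0275 by edgeR, and 0.0362 and 0.124 by DESeq2. Scaling to a reference shifts all estimates opposite to the direction of its own. Between fractions 14580 were higher in NO and 10363 lower in WT, and 14479 and 10739 in KO, against 16218 and 1452, and 16506 and 477, with total counts. For the difference of the KO effect 32 were higher and 11 lower, against 50 and 29 by DESeq2.

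All 12 correlations between same-numbered libraries of 2 groups, taken on deviations from the group mean, were negative (-0.52 to -0.0689). Libraries with different numbers were not compared, so these values cannot decide whether replicate numbers pair the libraries. A fit with the replicate block called 0 members in NO, 3 in CN, 5 in WT and 6 in KO between fractions (DKC1 in WT had an adjusted p of 0.062 by edgeR), 16 genes for the difference of the KO effect, and gave NOP10 0.0056 there. Depth limits TERC most, with 3 to 33 counts a library, and the cause of the other changes was not tested.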
